A study of Rattus norvegicus with 72 samples.

Results

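Clonidine, a drug that activates α2-adrenergic and imidazoline sites, was 1 of 8 compounds given to primary rat hepatocytes in this series, which calls it a non-carcinogen. The comparison described here set the 6 clonidine arrays against the 6 control arrays of the same set, 12 of the 72 arrays in all. Each clonidine array was paired with the control array that has the same exposure time and the same D number in its title, which gave 6 pairs: 3 at 24 h and 3 at 72 h. All 31042 probe sets other than the platform's own controls were considered.

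The cells were rat liver cells freshly isolated by collagenase perfusion and kept as a plain monolayer, so the model has no flow, bile outlet or other organ. They were plated in medium with serum and glucagon and moved after some hours to serum-free medium with hydrocortisone and insulin, hormones that the treated and the control cells therefore shared. Clonidine hydrochloride was added at 277 µM within the first day after plating, and RNA was taken after 24 h or 72 h. The control cells served the Wy-14643 and aflatoxin B1 arrays as well, and their vehicle is not stated in the labels. Strain, sex and age of the rats are not stated either, nor what a D number is, although by the protocol the 3 replicates of a compound were separate experiments. A single dose was used, so nothing here bears on the response to dose.

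Clonidine lowers blood pressure through α2-adrenergic receptors in the brain stem, which couple to inhibitory G proteins and reduce cyclic AMP. Hepatocytes answer foreign chemicals through sensors that are well known in this tissue: NRF2, which is released from its repressor by electrophiles and switches on glutathione and antioxidant genes, and the nuclear receptors CAR and PXR, which switch on cytochromes P450 of the CYP2B and CYP3A families. Bile acid synthesis from cholesterol, for which CYP7A1 is the rate-limiting enzyme, and many P450 enzymes depend on the differentiated state of the cell and on bile acid and hormone signals.

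After clonidine 10 of 21 measured NRF2 target genes rose, while 7 of 15 bile acid genes (synthesis and transport) and 5 of 16 genes listed as constitutive liver P450 enzymes fell. Hmox1 (heme oxygenase) was raised 5.99-fold in the mean of both times (the fitted log2 difference as a fold), the glutathione transferase genes Gstp1 and Gsta3 3.30-fold and 3.10-fold, and Igfbp1, a secreted binder of insulin-like growth factors, 2.59-fold. Cyp7a1 fell by 1.11 on the log2 scale, the male-specific P450 gene Cyp2c13 by 1.98 and Dhrs7l1, a short-chain dehydrogenase gene, by 1.87. In the limma fit on the 6 pair differences 423 of 16172 probe sets passed an adjusted p of 0.05 (2.62%), 171 higher (1.06%) and 252 lower (1.56%). Of 9419 genes with 1 symbol 122 were higher (1.3%) and 174 lower (1.85%), beside a median log2 difference of 0.0048 over all genes. Of these 296 genes (3.14%), 287 had the same sign in all 6 pairs, as had 9.71% of all genes above and 9.24% below 0, and 52 changed 2-fold or more. The count depended on the pairs: it was 1 without D number 1, 0 without D number 2 (2182 at an unadjusted p under 0.05) and 1081 without D number 3. In the fits without D1 and without D2, 0 of the 473 list genes passed by limma (149 and 159 at an unadjusted p under 0.05). The count over all probe sets was 0 in an unpaired fit of the 4 groups (1066 at an unadjusted p under 0.05) and 1 with no filter on dim probe sets. Values below are log2 differences, clonidine minus control, with the SE of the fit on 6 pairs and limma's adjusted p, and array signals are on the linear scale in the order D1, D2 and D3.

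The arrays were alike in scale, with median signals from 17.8 to 20.6, and between 19.3% and 21.9% of an array's values did not exceed the floor of 3.117. The log2 ratio of 3′ over 5′ actin signal, which rises with RNA degradation, was between 0.496 and 0.767 on the D1 and D2 arrays and 1.84 to 2.71 on the 4 D3 arrays. A score of culture time from 5283 probe sets that differ between 24 h and 72 h in the other control sets (0 and 1 for those means) ran against the labels for D3: it was 0.446 and 0.522 on the arrays labelled 24 h and −0.0488 and −0.112 on those labelled 72 h. The D1 and D2 arrays labelled 24 h scored from −0.103 to 0.0476. At the labelled 72 h D1 scored 0.779 and 0.765, but D2 only 0.257 and 0.246, nearer to the 24 h mean. Both members of each pair were alike in this score, with differences from −0.0754 to 0.0628. The mean of both times weighs all pairs alike, so its size does not turn on which time a D3 pair bears. Its SE and calls can, because the fit has a term for time. The D3 pair labelled 24 h differed more than the others, with 13.5% of probe sets beyond 1 on the log2 scale against 1.37% to 3.38%, and an actin ratio that was 0.871 lower after clonidine. Counts are therefore also given without D3. Hepatocyte markers stood high on every array, with Alb at 4833 to 6842, and Alb did not pass (0.03 ± 0.08, adjusted p = 0.881). Of 27 hepatocyte function genes 3 fell and 0 rose, against 1.85% of all genes lower. Markers of stellate cells (12 measured), macrophages (15), endothelial cells (5) and bile duct cells (2) gave 0 calls by limma, with median differences of −0.09, −0.22, −0.01 and −0.04. Their summed signals overlapped between groups: those of macrophages were 969 to 1950 after clonidine and 988 to 2331 in the controls. In such RNA fewer cells of a type and less RNA per cell cannot be told apart.

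**Figure D1:**
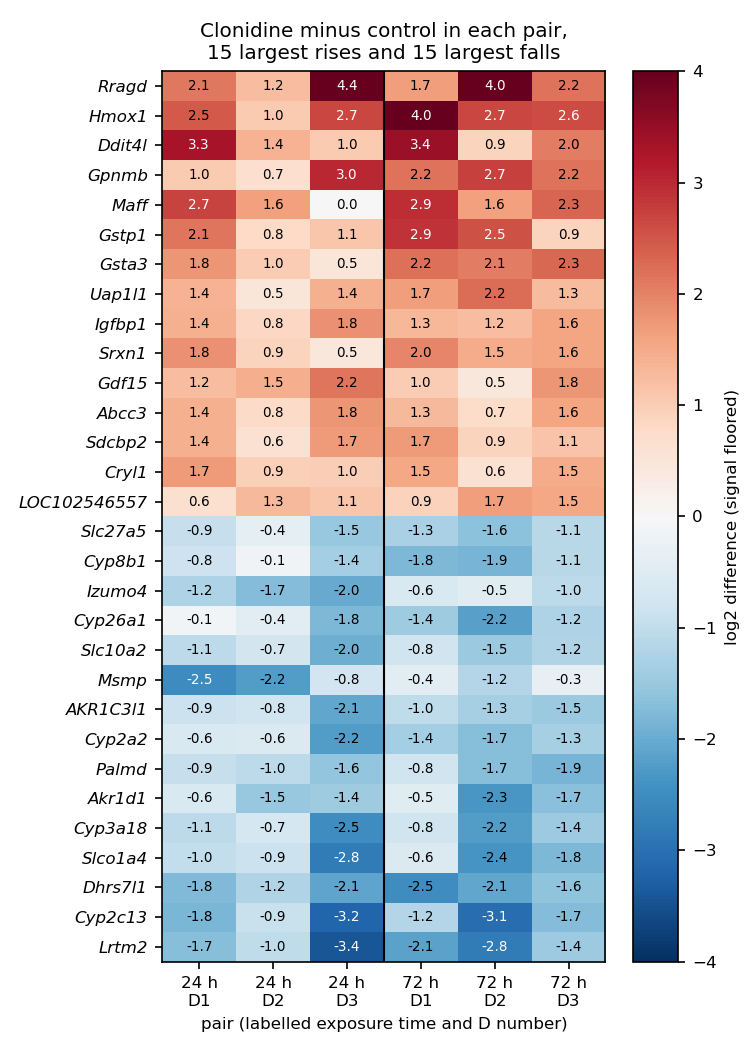
Log2 difference of clonidine minus control in each of the 6 pairs (columns, labelled exposure time and D number) for the 15 called genes with the largest rises and the 15 with the largest falls (rows), with the value in each cell; red is higher and blue lower after clonidine. Genes were chosen with the same sign in all 6 pairs, and the 24 h D3 column holds the largest falls for 8 of the 15 lower genes.

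The NRF2 genes were the list with the most rises. Of 21 measured NRF2 targets 10 rose and 0 fell, against 1.3% of all genes higher, and all 21 lay above 0 with a median of 0.68. Without D3 16 of the 21 rose, against 3.72% of all genes in that fit, and 0 rose by limma without D1 or without D2 (16 and 17 at an unadjusted p under 0.05). The list medians in the 6 pairs were 1.10, 0.58 and 0.48 at 24 h and 0.89, 0.39 and 0.89 at 72 h. The called members whose promoter holds the NRF2 motif are shown first, because NRF2 is known to act through a short DNA motif in the genes it controls. The motif TGACNNNGC (N is any base, both strands searched) was looked for in the 250 bases before the gene start in RefSeq's GRCr8 promoters, and 3373 of 33469 promoters (10.1%) hold it. It is present in 4 of the 19 list genes with a promoter there, all of them among the 8 called ones; the other called genes with a promoter there, Nqo1, Srxn1, Slc7a11 and Akr7a3, do not hold it in this window. These are the 4 windows, in gene sense, with the match in capitals, and in Gclm the match lies on the opposite strand.
Gclm, chr2:213031885-213032134, plus strand, match starting 172 bases before the gene start: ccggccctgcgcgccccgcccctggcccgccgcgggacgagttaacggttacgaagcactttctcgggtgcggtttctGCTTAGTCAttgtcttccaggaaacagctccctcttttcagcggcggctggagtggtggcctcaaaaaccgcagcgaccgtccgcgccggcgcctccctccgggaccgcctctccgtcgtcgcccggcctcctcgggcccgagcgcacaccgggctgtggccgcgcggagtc
Gsta3, chr9:31154739-31154988, plus strand, match starting 17 bases before the gene start: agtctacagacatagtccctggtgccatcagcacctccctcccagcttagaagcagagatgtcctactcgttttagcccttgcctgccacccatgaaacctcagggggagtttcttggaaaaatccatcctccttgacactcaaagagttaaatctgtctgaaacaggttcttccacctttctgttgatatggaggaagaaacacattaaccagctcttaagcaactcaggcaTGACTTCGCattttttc
Gstp1, chr1:210769706-210769955, minus strand, match starting 61 bases before the gene start: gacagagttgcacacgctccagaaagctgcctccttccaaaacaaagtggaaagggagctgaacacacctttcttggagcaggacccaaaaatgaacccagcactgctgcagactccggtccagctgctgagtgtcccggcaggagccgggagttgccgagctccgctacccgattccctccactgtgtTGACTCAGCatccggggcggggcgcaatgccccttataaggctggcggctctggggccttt
Me1, chr8:96540245-96540494, minus strand, match starting 167 bases before the gene start: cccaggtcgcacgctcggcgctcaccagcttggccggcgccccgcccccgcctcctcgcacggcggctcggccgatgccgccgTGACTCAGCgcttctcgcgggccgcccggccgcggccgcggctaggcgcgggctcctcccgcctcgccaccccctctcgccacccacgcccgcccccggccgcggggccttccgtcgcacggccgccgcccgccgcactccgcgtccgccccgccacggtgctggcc
The matches in Gstp1 and Me1 are the same 9 bases, and those in Gclm and Gsta3 differ from them only within the 3 free positions. A match is a description of the letters in this window, and the arrays say nothing of binding.

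Among the antioxidant enzymes, Hmox1, which breaks down heme, had control signals of 215, 794 and 177 at 24 h and 102, 224 and 315 at 72 h, and clonidine signals of 1177, 1629 and 1133 and 1683, 1416 and 1930. At both times the lowest clonidine array was above the highest control array, although the D2 control at 24 h was already high. The difference was 2.58 ± 0.25 (adjusted p = 0.00741). Srxn1, sulfiredoxin, which repairs oxidised peroxiredoxins, went from 495, 925 and 698 to 1767, 1699 and 958 at 24 h and from 328, 385 and 602 to 1269, 1081 and 1805 at 72 h. Again the groups did not overlap at either time, and the D3 pair at 24 h had the smallest rise. The fitted difference was 1.37 ± 0.16 (adjusted p = 0.00968), and a second probe set of the gene gave 1.69 ± 0.18. Txnrd1, thioredoxin reductase, and the quinone reductase gene Nqo1 gave 0.78 ± 0.18 (adjusted p = 0.0638) and 0.57 ± 0.12 (adjusted p = 0.0492), of which Nqo1 alone passed.

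Of the 4 measured glutathione transferase genes of the list, Gsta3 and Gstp1 rose, while Gsta1 (0.25 ± 0.07, adjusted p = 0.0942) and Gstm1 (0.00 ± 0.07, adjusted p = 0.996) did not pass. The control signals of Gsta3, an alpha-class glutathione transferase, were 108, 36.6 and 137 at 24 h and 88.2, 26.2 and 40.5 at 72 h, against 365, 73.9 and 189.7 and 405, 109 and 201 after clonidine. Its arrays spread widely by D number, so the groups overlapped at 24 h, but each pair rose, by 1.63 ± 0.16 in the fit (adjusted p = 0.00741). Gstp1, the pi-class transferase that is scarce in adult rat liver, rose by 1.72 ± 0.27 (adjusted p = 0.0213) from 184, 319.9 and 554 at 24 h and 204, 105 and 365 at 72 h to 808, 552 and 1184 and 1519, 609 and 669. The groups of Gstp1 overlapped slightly at 24 h and not at 72 h. Transferases of a class resemble each other, and the probe sets may read more than 1 of them. The cystine carrier gene Slc7a11 rose by 0.91 ± 0.16 and Gclm, the modifier subunit of the enzyme that starts glutathione synthesis, by 0.70 ± 0.11, while the catalytic subunit gene Gclc did not pass (0.62 ± 0.14, adjusted p = 0.055). Malic enzyme Me1, a source of NADPH, rose by 0.91 ± 0.09 and the aldehyde reductase gene Akr7a3 by 1.07 ± 0.15, with no overlap of groups for Akr7a3. The pentose phosphate genes Pgd (0.40 ± 0.10), Tkt (0.24 ± 0.08) and Taldo1 (0.19 ± 0.13), of which Pgd also makes NADPH, did not pass (adjusted p = 0.0661, 0.144 and 0.464).

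Among 17 immediate early genes 1 rose and 1 fell, against 1.3% of all genes higher and 1.85% lower. The largest change was in Maff, a small Maf protein that binds DNA together with NRF2 and stood outside the NRF2 list. Its signals were 23.3, 30.2 and 59.4 in the 24 h controls and 153, 93.7 and 60.2 after clonidine, and 16.8, 19.1 and 29.6 and 129, 59.0 and 149.6 at 72 h. The D3 pair at 24 h hardly moved and the other 5 pairs rose, for a difference of 1.88 ± 0.33 (adjusted p = 0.027). The fall was in Dusp1, a phosphatase of MAP kinases (−0.48 ± 0.07), whose second probe set did not show it (0.07 ± 0.25).

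**Figure D2:**
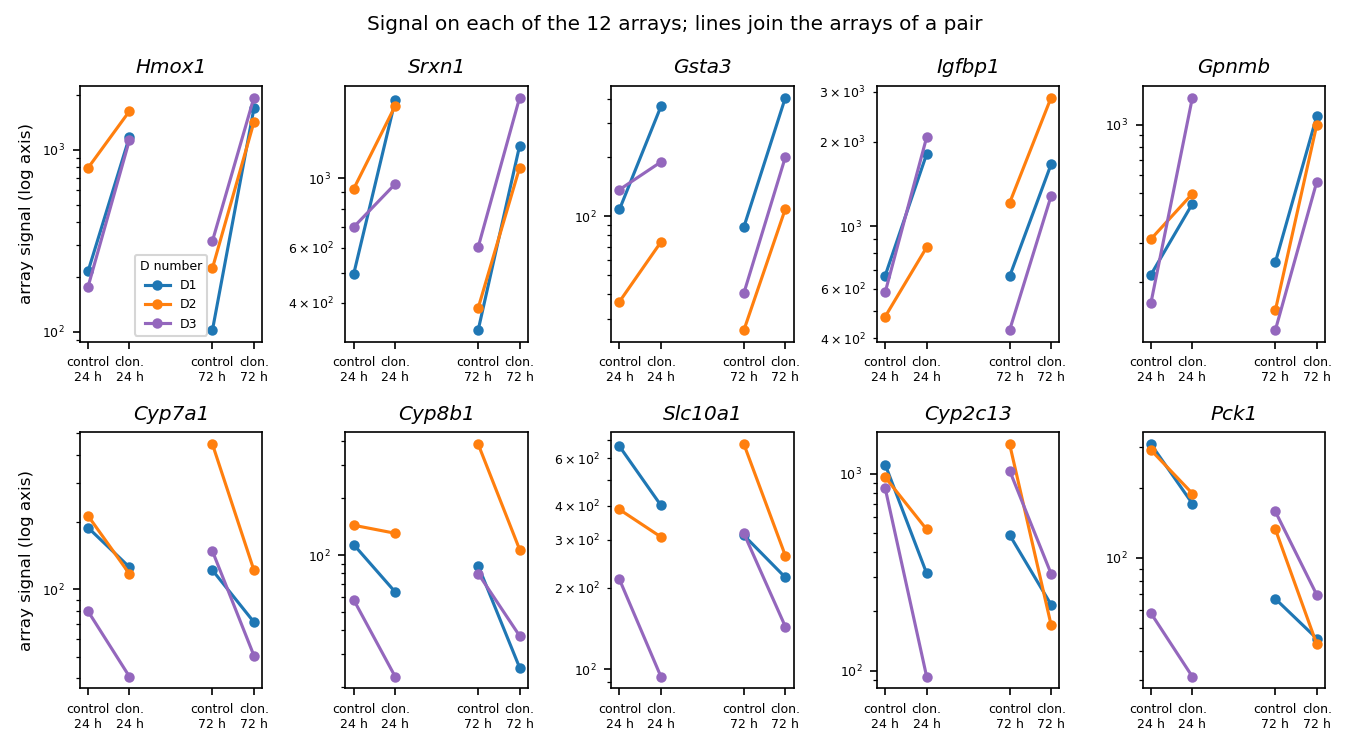
Array signal (log axis, linear units) of 10 genes on the 12 arrays; the lines join the control and the clonidine array of a pair, and the colours mark the D number. The 5 genes of the upper row rise in every pair and the 5 of the lower row fall in every pair, while the level of a gene differs between D numbers.

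Among drug-metabolism genes the largest change was in a probe set of the CYP2B family whose annotation gives more than 1 gene of that family, so that no single gene is named. Its signals were 209, 149 and 79.5 in the 24 h controls and 1938, 1904 and 534 after clonidine, and 100.5, 250.1 and 231 and 1808, 2269 and 1278 at 72 h. Every clonidine array was above every control array, with the 24 h D3 array the lowest of the 6 clonidine arrays. The difference of 3.24 ± 0.21 (adjusted p = 0.00297) was the only one that passed at 24 h alone (3.21, adjusted p = 0.0376). Of 15 measured targets of CAR and PXR, 4 rose and 2 fell, with a median of −0.07, against 1.3% of all genes higher and 1.85% lower. Without D3 6 rose and 2 fell, against 3.72% of all genes higher and 4.12% lower in that fit. The 4 risers were the export pump genes Abcc3 (1.26 ± 0.15) and Abcc2 (0.94 ± 0.09), the P450 gene Cyp2c6v1 (0.69 ± 0.11) and Alas1, which starts heme synthesis (0.54 ± 0.08). For Abcc2 the controls were at 770.1, 568 and 864 and 689, 543 and 695 and the clonidine arrays at 1788, 1101 and 1294 and 1312, 1131 and 1297, without overlap (adjusted p = 0.00741). Cyp3a18 (−1.46 ± 0.26) and Cyp2a1 (−0.46 ± 0.07) fell. The CYP3A gene Cyp3a23-3a1, a standard PXR target, did not pass at −0.07 ± 0.05 (adjusted p = 0.452) and was already bright in every control, at 4746 to 6399. Of 4 measured AhR targets 1 rose, Nqo1, which NRF2 also controls, while Cyp1a1 did not pass (−0.54 ± 0.16, adjusted p = 0.114).

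Genes of bile acid synthesis and transport were the list with the lowest median. Of 15 measured members 7 fell and 1 rose, against 1.85% of all genes lower, with a median of −0.74. Without D3 9 fell and 1 rose, against 4.12% of all genes lower in that fit, and 0 passed by limma without D1 or without D2 (11 and 12 at an unadjusted p under 0.05). The pair medians were −0.54, −0.34 and −0.93 at 24 h and −0.48, −1.01 and −0.91 at 72 h. Cyp7a1, the rate-limiting enzyme, had signals of 189, 214 and 79.9 in the 24 h controls and 126, 117 and 40.7 after clonidine, and of 122, 448 and 149 and 71.5, 122 and 50.6 at 72 h. The groups overlapped at both times, and the controls differed between D numbers, but every pair was lower, by 1.11 ± 0.15 in the fit (adjusted p = 0.0139). Cyp8b1, which sets the share of cholic acid, fell by 1.18 ± 0.18 from 113, 144 and 57.8 to 63.7, 130.4 and 22.7 at 24 h and from 87.8, 387 and 79.8 to 25.3, 107 and 37.3 at 72 h; its D2 pair at 24 h hardly differed. Akr1d1, the steroid 5β-reductase of the pathway, fell by 1.33 ± 0.22, although its second probe set did not pass (−0.62 ± 0.19, adjusted p = 0.131).

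Both measured enzymes that conjugate bile acids fell. Slc27a5, which couples bile acids to coenzyme A, gave −1.14 ± 0.15 (adjusted p = 0.0141). Baat, which then joins them to taurine or glycine, had 1888, 1765 and 882 and 1555, 2308 and 1268 in the controls and 1295, 1214 and 605 and 835, 1152 and 673 after clonidine, with no overlap at 72 h. Its differences were −0.54 in each pair at 24 h and larger in size in each pair at 72 h, for a fitted −0.74 ± 0.06 (adjusted p = 0.00597). Of the uptake carriers, Slc10a1, the sodium-dependent bile acid carrier, gave −0.88 ± 0.15 (adjusted p = 0.0246) and Slco1a4 gave −1.56 ± 0.30 (adjusted p = 0.0369). Slc10a2, the carrier best known from the ileum and outside the list, went from 172, 157 and 222 to 83.0, 93.8 and 57.2 at 24 h and from 186, 126 and 125 to 107, 45.1 and 54.0 at 72 h. Its groups did not overlap at either time (−1.21 ± 0.17, adjusted p = 0.0149). The riser of the list was Abcc2, which exports conjugates into bile. Members that did not pass were the export pump gene Abcb11 (−0.19 ± 0.08, adjusted p = 0.227), the bile acid receptor gene Nr1h4 (−0.55 ± 0.12, adjusted p = 0.0569) and Cyp27a1 of the alternative pathway (−0.07 ± 0.06, adjusted p = 0.525).

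Genes listed as constitutive liver P450 enzymes fell in part. Of 16 measured members 5 fell and 0 rose, against 1.85% of all genes lower, 15 lay below 0, and the median was −0.38. Without D3 the count was again 5 and 0, against 4.12% of all genes lower in that fit. Cyp2c13 had 1115, 961 and 845 and 489, 1415 and 1039 in the controls and 312, 522 and 93.1 and 216, 171 and 311 after clonidine, without overlap at either time. The difference was −1.98 ± 0.33 (adjusted p = 0.0243), but the ending of the probe set's name, _s_at, marks a design that can match several transcripts. Cyp2a2, a steroid hydroxylase, gave −1.30 ± 0.21, Cyp26a1, which clears retinoic acid, −1.20 ± 0.23, and Cyp2d3 and Cyp2d2 −0.69 ± 0.11 and −0.44 ± 0.07. The female-specific gene Cyp2c12 did not pass at −1.62 ± 0.38 (adjusted p = 0.0618), and the male-specific gene Cyp2c11 gave −0.38 ± 0.26 (adjusted p = 0.448). Dhrs7l1, outside the lists, gave 390.1, 631 and 184 and 292, 1355 and 293 in the controls and 115, 274 and 42.7 and 52.3, 321 and 95.5 after clonidine. Each pair was lower although D numbers differed widely (−1.87 ± 0.15, adjusted p = 0.00597). The P450 list had its lowest median in the 24 h D3 pair, −0.99 against −0.57 to −0.15 in the other 5 pairs, and there the actin ratio differed by −0.871; the part of RNA quality in that pair was not tested.

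Of 28 genes of amino acid breakdown 6 fell and 0 rose, against 1.85% of all genes lower, with a median of −0.25. Without D3 11 fell and 1 rose, against 4.12% of all genes lower in that fit, with the times averaged within a D number 2 fell, and 0 passed by limma without D1 or without D2 (11 and 13 at an unadjusted p under 0.05). The 6 were Gnmt, which uses up methyl groups (−0.82 ± 0.10), Cth of cysteine synthesis (−0.63 ± 0.07, adjusted p = 0.00878), Hgd of tyrosine breakdown (−0.64 ± 0.13), the transaminase gene Gpt2 (−0.41 ± 0.08), and Haao and Tdo2 of tryptophan breakdown (−0.37 ± 0.07 and −0.33 ± 0.07). A second Gpt2 probe set did not pass (−0.26 ± 0.13, adjusted p = 0.31). Otc, a urea cycle gene from the list of hepatocyte function, fell from 732, 666 and 301 to 313, 356 and 237 at 24 h and from 357, 845 and 573 to 209, 354 and 218 at 72 h. Its difference was −0.98 ± 0.14 (adjusted p = 0.0148), with overlap of the groups at 24 h. Tat, a transaminase that glucocorticoids and cyclic AMP induce, did not pass (−0.13 ± 0.18, adjusted p = 0.717).

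Sugar metabolism and the genes read out for cyclic AMP gave no single direction, beside 1.3% of all genes higher and 1.85% lower. Of 14 measured targets of cyclic AMP and CREB, 3 rose and 2 fell, with a median of 0.03. Igfbp1 rose most: its controls were at 667, 477 and 582 and 663, 1210 and 427 and the clonidine arrays at 1806, 842 and 2072 and 1659, 2865 and 1280. The groups did not overlap at either time, and the 6 pair differences ran from 0.82 (24 h D2) to 1.83 (24 h D3) (1.37 ± 0.12, adjusted p = 0.00741). Gadd45b, a stress gene, rose by 0.92 ± 0.11 and Irs2, an adaptor of the insulin receptor, by 0.67 ± 0.12. Pck1, the control enzyme of gluconeogenesis, fell from 309, 291 and 57.9 to 171, 189 and 30.9 at 24 h and from 66.7, 133 and 158 to 45.0, 42.5 and 69.3 at 72 h. Every Pck1 pair was lower, while D3 stood far below the other D numbers at 24 h (−0.96 ± 0.14, adjusted p = 0.0176). The coactivator gene Ppargc1a (−0.01 ± 0.20, adjusted p = 0.976) and Crem (0.23 ± 0.10, adjusted p = 0.229) did not pass. Of 19 genes of gluconeogenesis and glycolysis, a list that does not hold Pck1, 3 fell and 0 rose, with a median of −0.11. They were the pyruvate kinase gene Pklr (−0.88 ± 0.13), Ppp1r3b, which targets a phosphatase to glycogen (−0.64 ± 0.12), and Pfkfb1, which sets fructose 2,6-bisphosphate (−0.55 ± 0.08). A second Ppp1r3b probe set did not pass (−0.47 ± 0.25, adjusted p = 0.338). The fructose carrier gene Slc2a5, outside the list, fell (adjusted p = 0.00878), by 0.60 at 24 h and 1.40 at 72 h.

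The α2-adrenergic receptor genes were dim on these arrays, while Maob, Maoa and Nisch, read for imidazoline sites, reached 834, 797 and 303. Of 8 adrenergic receptor genes on the array 1 passed the filter on signal, Adra1b, the main α1 receptor of liver, which did not pass the test (−0.34 ± 0.13, adjusted p = 0.207). The α2 receptor genes Adra2a, Adra2b and Adra2c reached at most 8.14, 19.0 and 6.77 on any of the 12 arrays, beside a median of all values of 19.74, so their change could not be measured. Monoamine oxidases carry an imidazoline site: Maob gave −0.35 ± 0.08 (adjusted p = 0.0611) and Maoa −0.05 ± 0.09 (adjusted p = 0.764), and Nisch, a candidate imidazoline receptor, −0.13 ± 0.09 (adjusted p = 0.47). Of 17 G protein and cyclic AMP signalling genes 0 passed (median 0.03), and the smallest adjusted p among them was 0.0765; 1 had an unadjusted p under 0.05.

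Stress programmes other than NRF2 were raised in a few members, beside 1.3% of all genes higher and 3.72% in the fit without D3. Of 15 hypoxia targets 4 rose and 0 fell, all 15 were above 0 and the median was 0.35. Without D3 7 rose, and with the times averaged within a D number 2 rose. Adm, the vasodilator peptide adrenomedullin, had 88.7, 148 and 155 and 169.8, 129 and 130.2 in the controls and 164, 222 and 593 and 385, 397 and 260.1 after clonidine, without overlap at either time, though by little at 24 h. Its rise was 1.20 ± 0.18 (adjusted p = 0.0188), followed by Ndrg1 (0.84 ± 0.13), the oxygen sensor gene Egln3 (0.72 ± 0.11) and the disulphide oxidase gene Ero1a (0.45 ± 0.09). Second probe sets of Ndrg1 (0.76 ± 0.22, adjusted p = 0.103) and Ero1a (0.35 ± 0.10, adjusted p = 0.107) did not pass. Of 30 ER stress and ATF4 targets 3 rose and 0 fell (median 0.15): Slc7a11, the transcription factor gene Ddit3 (0.58 ± 0.10) and the chaperone gene Dnajb9 (0.35 ± 0.07). In this list 11 rose and 0 fell without D3. With the times averaged within a D number 0 passed by limma (13 at an unadjusted p under 0.05). Without D1 and without D2 the count was also 0 by limma (9 and 10 at an unadjusted p under 0.05). Of 18 p53 targets 3 rose and 0 fell, with Gdf15, a stress hormone that ATF4 controls as well, at 1.35 ± 0.18 (adjusted p = 0.0148). The Gdf15 controls were at 59.8, 51.5 and 44.4 and 55.2, 98.7 and 57.8 against 139.7, 141 and 198 and 110.3, 136 and 198, without overlap. Plk2 (0.66 ± 0.13) and Aen (0.43 ± 0.09) were the others, while the 2 standard p53 targets did not pass: Cdkn1a at −0.13 ± 0.07 (adjusted p = 0.355), with a second probe set at 0.09, and Mdm2 at 0.33 ± 0.10 (adjusted p = 0.132). Further Mdm2 probe sets were higher, at 0.46 ± 0.10 (adjusted p = 0.0594) and 0.85 ± 0.22 (adjusted p = 0.0833), and did not pass either.

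Gpnmb, a glycoprotein of lysosomes that is known to rise when they are loaded, was higher after clonidine. It was the 1 called gene among 20 of lysosome and phospholipid storage, against 1.3% of all genes higher. Its controls were at 216, 311 and 162 and 245, 150.2 and 123 and the clonidine arrays at 446, 495 and 1319 and 1094, 1002 and 559. No clonidine array overlapped the controls of its time, and the 24 h D3 array was the highest (1.97 ± 0.28, adjusted p = 0.0153). Of the list 18 of 20 were above 0, with a median of 0.25. Without D3 6 rose, against 3.72% of all genes in that fit, and with the times averaged within a D number 1 rose. The markers of macrophages, cells that also express Gpnmb, had a median of −0.22 with 0 calls, and ran from −0.64 to 0.69. Which cells gave the Gpnmb rise was not tested. Rragd, a GTPase that brings nutrient signals to the lysosome, had the largest fitted rise of a named gene, 2.60 ± 0.49 (adjusted p = 0.0354), but from controls of 2.38, 10.6 and 2.11 and 6.30, 1.31 and 1.80, of which 4 were at the floor, so that its size depends on the floor; the clonidine arrays gave 13.3, 25.1 and 65.4 and 20.1, 50.7 and 13.9.

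Lipid genes were mixed, beside 1.3% of all genes higher and 1.85% lower. Of 18 genes of cholesterol synthesis 0 passed by limma (median 0.21, 6 at an unadjusted p under 0.05). Without D3 5 rose, against 3.72% of all genes in that fit, and with the times averaged within a D number 1 rose. Of 20 genes of fatty acid synthesis 2 rose and 1 fell: Me1, the desaturase gene Fads1 (0.47 ± 0.09), and the regulator gene Srebf1 (−0.34 ± 0.07), whose second probe set gave 0.01. Of 28 PPARα and fatty acid oxidation genes 0 rose and 1 fell, Cyp4a1 (−1.08 ± 0.18, adjusted p = 0.0241), the rat's standard PPARα target. Its control signals were 129, 112 and 362 and 944, 1160 and 85.9, and those after clonidine 61.8, 70.6 and 250.4 and 201, 661 and 38.7. The D3 values stand high at the labelled 24 h and low at the labelled 72 h, opposite to D1 and D2, and the fall was present in all 6 pairs.

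Further lists changed in few members, beside 1.3% of all genes higher and 1.85% lower. Of 18 interferon-induced genes 2 fell and 0 rose (median −0.30), Isg15 (−0.95 ± 0.17) and Irf7 (−0.63 ± 0.13). Of 16 clock genes Nr1d2 rose (0.69 ± 0.13) and Npas2 fell (−0.86 ± 0.13). A second Nr1d2 probe set did not pass (0.71 ± 0.16, adjusted p = 0.0611). The Npas2 groups did not overlap at either time, with 182, 166 and 232 and 153, 167 and 155 against 79.5, 134 and 107 and 84.8, 88.2 and 91.5. Of 21 acute phase genes 2 fell and 0 rose, the lectin gene Mbl2 (−0.43 ± 0.07) and the interleukin 6 receptor gene Il6r (−0.40 ± 0.08). The second Mbl2 probe set did not pass (−0.17 ± 0.15, adjusted p = 0.555). Of 13 genes of the growth hormone and IGF axis 2 rose, Igfbp1 and Irs2, and 1 fell, the growth hormone receptor gene Ghr (−0.44 ± 0.08), whose second probe set was at −0.09. Of 11 glucocorticoid targets 2 fell, Tsc22d3 (−0.57 ± 0.10) and Dusp1. Of 5 foetal liver genes 2 rose, Gstp1 and the aldolase gene Aldoa (0.68 ± 0.09), and of 27 genes of the cytoskeleton and dedifferentiation 1 rose, Tubb6 (0.51 ± 0.07). Of 9 measured cell cycle genes 0 passed by limma (2 at an unadjusted p under 0.05).

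**Figure D3:**
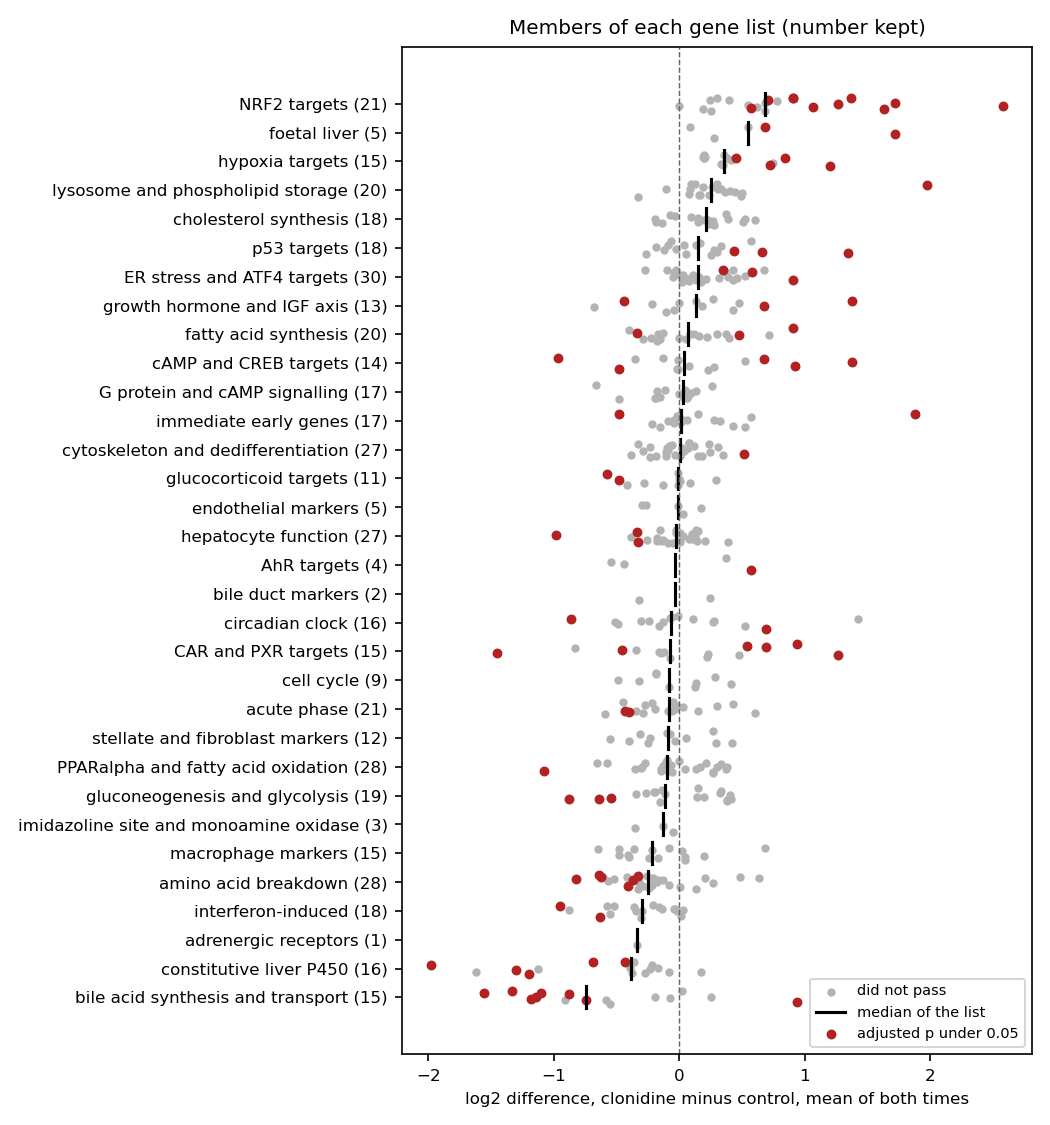
Log2 difference of clonidine minus control, mean of both times, of each measured member of the gene lists (1 point a gene, number of genes in brackets), with called genes in red, the others in grey and the median of each list as a black bar; points are spread vertically only for legibility. The NRF2 list has the highest median, 0.68, and the bile acid list the lowest, −0.74, while markers of other liver cell types hold no called gene.

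The times were then taken apart. At 72 h alone 60 probe sets passed (0.371%), 21 higher and 39 lower, at 24 h alone 1 (0.00618%), and for the difference between the times 0, with 483 at an unadjusted p under 0.05 (2.99%) and a smallest adjusted p of 0.928. That 72 h gave more calls than 24 h therefore does not show a larger effect. Of the 296 genes called in the mean of both times 205 were smaller in size at 24 h than at 72 h, and the median size was 0.59 at 24 h and 0.67 at 72 h. Gsta3 was at 1.08 and 2.19, Hmox1 at 2.06 and 3.11 and Cyp7a1 at −0.81 and −1.40, in that order of times, while Igfbp1 was at 1.36 and 1.38. The D3 arrays, with scores of culture time opposite to their labels, belong to both times; without D3 586 probe sets passed at 72 h and 83 at 24 h.

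Nifedipine, a calcium channel blocker and the other compound that the series calls a non-carcinogen, was given at 156 µM with controls of its own, so that its comparison shares no array with clonidine's. Of the 122 genes higher after clonidine 79 (64.8%) were also called higher after nifedipine, where 7.95% of all genes were, and of the 174 lower genes 132 (75.9%) were also lower, where 13.7% of all were. Those shared genes were 10.5% of nifedipine's 749 risers and 10.2% of its 1294 fallers. Called in opposite directions were 1 and 2 genes. The NRF2 list had a median of 1.03 after nifedipine, with 18 of 21 higher, and the bile acid list −0.87, with 9 of 15 lower.

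A test of the difference between the 2 effects, on 12 pair differences, passed for 349 of 17365 probe sets (2.01%), 171 with the clonidine effect above the nifedipine effect and 178 below. Over genes it passed for 2.42% of 9419. Among the genes higher after clonidine 20 of 122 passed this test, 9 of them with the larger rise after clonidine, and among the lower genes 14 of 174, 7 of them with the larger fall. Gpnmb stood at 1.97 ± 0.28 after clonidine and 0.39 after nifedipine (difference 1.58, adjusted p = 0.0197), and the CYP2B probe set at 3.24 ± 0.21 and 1.13 (adjusted p = 0.00554). Cyp26a1 fell after clonidine and stood at 0.58 after nifedipine (adjusted p = 0.0119). Several stress genes rose less after clonidine: Srxn1 (2.52 after nifedipine, adjusted p = 0.0223), Nqo1 (2.17, 0.00135), Akr7a3 (2.06, 0.0197), Abcc2 (1.66, 0.00822) and the hypoxia genes Egln3 (2.17, 0.000433) and Ero1a (2.08, 0.000407). Pklr and Pck1 fell less, against −2.09 (0.0064) and −1.76 (0.0302). Cyp1a1 was the widest contrast, at −0.54 ± 0.16 after clonidine and 4.24 after nifedipine (adjusted p = 4.29e-07). The doses differed, so these values compare treatments as given.

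**Figure D4:**
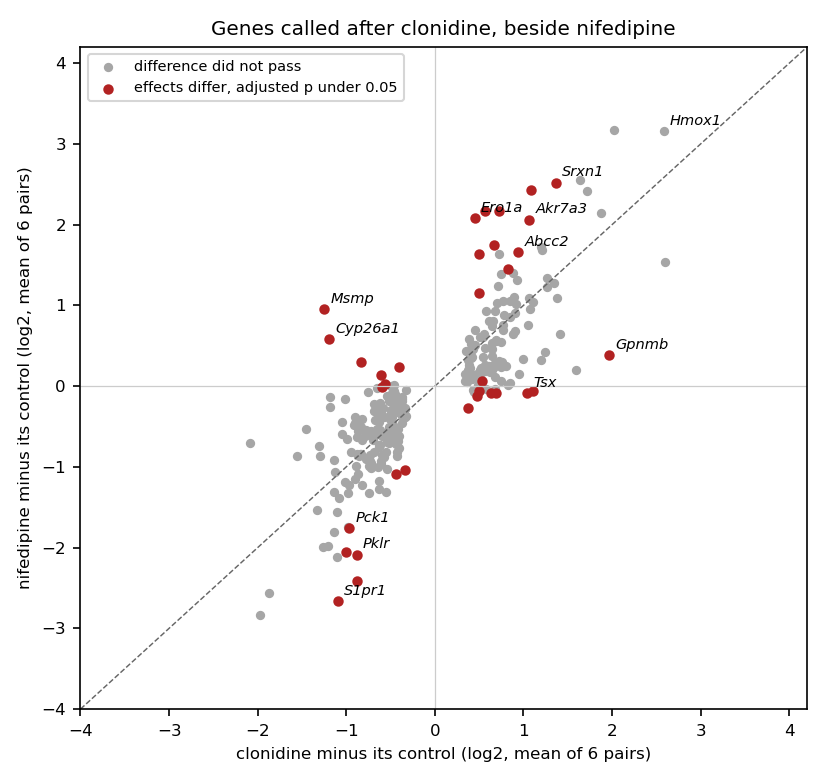
Log2 difference of nifedipine minus its own control (vertical axis) against clonidine minus its control (horizontal axis), each the mean of 6 pairs, for the 296 genes called after clonidine; red points passed the test of the difference between the effects, and the dashed line marks equal effects. Of the 122 genes to the right 111 are also above 0 after nifedipine, and of the 174 to the left 166 are also below 0.

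The same control arrays also served Wy-14643, a PPARα agonist at 250 µM, and aflatoxin B1 at 19 nM, so clonidine was set directly against the mean of the arrays of these 2 compounds with the same time and D number, which leaves the controls out. In all 796 of 16709 probe sets passed (4.76%). Of the 122 genes higher after clonidine 47 were also called higher in this comparison, where 3.24% of 9358 genes were, and 107 had the same sign. Of the lower genes 173 could be tested, of which 17 were also called lower, where 2.3% of all were, and 106 had the same sign. The clonidine arrays are the same in both comparisons, so part of this agreement is built in. These counts are therefore no independent support for the calls. Hmox1 (2.07, adjusted p = 0.00103), Gpnmb (1.60, 0.0221), Slc7a11 (1.65, 0.00193), Cryl1 (1.63, 0.000366) and the CYP2B probe set (1.87, 0.0158) were higher than the mean of those arrays. Pck1 (−2.93, 0.00785), Cyp4a1 (−2.73, 0.000532) and Akr1d1 (−1.04, 0.0347) were lower. Igfbp1 (0.35, 0.223), Gstp1 (0.77, 0.129), Cyp7a1 (0.98, 0.247) and Baat (−0.29, 0.506) did not pass. Both compounds are active, so a gene that they move can miss this test or pass it on their account. Against the shared controls Cyp4a1 stood at 3.02 after Wy-14643, Pck1 at 3.18 after aflatoxin B1 and Slc7a11 at −1.72 after aflatoxin B1, beside −1.08 ± 0.18, −0.96 ± 0.14 and 0.91 ± 0.16 after clonidine. The CYP2B probe set stood at 3.47 after Wy-14643 and −0.716 after aflatoxin B1, beside 3.24 ± 0.21 after clonidine. It was thus not higher after clonidine than after Wy-14643.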

How the data were processed

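Affymetrix rat arrays were hybridised with biotin-labelled total RNA, each with 1 culture sample. MAS5 made the values, per the submitters' processing notes, and its version was not given in the sources used here. What was deposited is a table of linear intensity values for 31099 probe sets, in which 0 columns were left unused. No further normalization was applied. Signals below 3.117 (the table's 20th percentile, called the floor) were set to it before log2 was taken, so that changes near the floor are understated. The 57 control probe sets were left out. Probe sets whose mean reached the table's median, 19.74, in at least 1 of the 4 groups were used, 16172 in number (52.1%).

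The 6 pair differences were fitted with limma 3.58.1 in R 4.3.3 (lmFit, and eBayes with an intensity trend) on time, with the D number as a random block (duplicateCorrelation, 0.0837; 4 residual degrees of freedom) and Benjamini-Hochberg adjustment over all kept probe sets at a threshold of 0.05. The pairing by number, taken from the titles, was checked: deviations from the group means of same-numbered arrays correlated at 0.677 to 0.873. Nothing says whether a D number is an animal, so p-values measure the spread of these pair differences around the mean of their time. Precision is limited by having 3 arrays in a group. The nifedipine difference used 12 pair differences and the direct comparison 18 arrays. A probe set was named where the platform annotation gives 1 symbol, updated through RefSeq, and each of 9419 genes was read from its kept probe set of highest mean.

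The named genes were the 15 largest rises and 15 largest falls among called genes with 1 sign in all 6 pairs, up to 4 called members of each of 32 lists and a fixed set. For each time and for the difference between times the rule takes the 5 largest in each direction, and the text gives fewer. Further list members, and the genes of the last part, were added once their values had been seen. The members and lists were chosen with earlier results of these data known. Alternatives were unpaired and fixed-block fits, another floor, pseudocount, filter and normalization, an actin covariate, and leaving out each pair or D number.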

Additional observations from a re-analysis of the deposited data

Results flagged for a closer look

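Each of 100 named genes was looked at for a pair that stands apart from the other 5 and for opposite signs at the 2 times. Chance alone marks about 1 in 20 genes for a pair that stands apart, and 7 of the 100 were found. Aen rose least in the 24 h D3 pair (0.12) and Alb was higher in that pair (0.46). In the 72 h D1 pair Cyp4a1 (−2.23) and Dusp1 (−0.74) fell more and Fads1 (0.94) rose more than in the other pairs. Mug1, a plasma protease inhibitor gene, fell most in the 72 h D2 pair (−2.35), and Ndrg1 rose least in the 24 h D2 pair (0.14). Each of these genes but Alb had passed the test of the mean of both times.

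For 3 genes every pair moved one way at 24 h and the opposite way at 72 h, with an effect at 72 h minus that at 24 h of 2.00 for Cyth3, 1.86 for Pik3cd and −1.86 for Smad6. Their difference was not called by limma (adjusted p = 0.928 for each), they were named for its size, and their signals were low.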

How the results depend on the processing

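Each of the 75 named genes that passed kept its call in 7 to 16 of the 21 other settings; their signs could hardly turn, since many were chosen for 1 sign in all 6 pairs. The 423 probe sets that passed in the mean of both times became 0 and 102 with no replicate block (4 groups, and all 24 groups sharing 1 spread), 1011 with a fixed replicate block over all 72 arrays (325 of the 423, 76.8%, among them), 645 with the 6 pairs taken as independent, 178 with the times averaged within a D number, 1 with no filter, 121 with no intensity trend and 3540 with the actin ratio as a covariate. Leaving out a pair or D number gave 0 to 1532, with 33, 230 and 1532 without 24 h D1, D2 and D3, and 67, 52 and 2 without 72 h D1, D2 and D3. Of the 423, 403 (95.3%) also passed without D3. At 24 h the 1 call became 0 and 4 with no replicate block, 86 with the fixed block, 0 with no filter, 0 with no trend, 253 with the covariate and 0 to 83 with a pair or D number left out. At 72 h the 60 calls became 0 and 7, 98, 0, 0, 1930 and 0 to 1214 in that order. The 0 calls for the difference between times stayed 0. The 349 probe sets of the nifedipine comparison became 143 with no filter and 146 to 377 without a D number, and the 796 of the direct comparison 21 and 107 to 466. Of 160 list medians recomputed (32 lists, 5 settings), 4 moved by more than the spread of the pairs: those of G protein and cyclic AMP signalling (−0.10) and fatty acid synthesis (−0.07) without D3, and of glucocorticoid targets (−0.10) and CAR and PXR targets (0.04) without D2. The cause of these changes was not tested.

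With 3 arrays per group and 4 residual degrees of freedom, small changes can be missed. Most adrenergic receptors were too dim to measure. One dose, unknown D numbers and the D3 time labels limit what the times show.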

Other observations

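Several genes with large changes stand outside the gene lists. Ddit4l, a stress-induced relative of the growth inhibitor Ddit4, gave 6.47, 25.4 and 12.7 in the 24 h controls and 63.8, 66.9 and 26.0 after clonidine, and 5.36, 9.75 and 14.8 and 58.5, 18.2 and 61.4 at 72 h. All 6 pairs were higher, although the signals were low (2.02 ± 0.38, adjusted p = 0.0354 by limma). Uap1l1, a relative of a sugar nucleotide enzyme, rose by 1.41 ± 0.18, Sdcbp2, a syntenin gene, by 1.25 ± 0.17 and Cryl1, a sugar dehydrogenase gene, by 1.21 ± 0.16. For Cryl1 the controls were at 98.7, 124 and 147 and 79.1, 111 and 119 and the clonidine arrays at 322, 238 and 291 and 229, 169 and 331, without overlap at either time. Tsx rose by 1.04 ± 0.15 and stood at −0.08 after nifedipine, a difference that passed (adjusted p = 0.0137).

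Palmd, which encodes palmdelphin, fell from 761, 562 and 808 to 403, 272 and 273 at 24 h and from 1209, 937 and 594 to 702, 289 and 164 at 72 h, with overlap of the groups only at 72 h. The fitted difference was −1.31 ± 0.15 (adjusted p = 0.00878), and of its other 3 probe sets the differences were −1.32, −0.79 and −0.49, of which the last did not pass (adjusted p = 0.325). Mug1 fell by 1.13 ± 0.17, with D3 signals far below those of D1 and D2 in both groups. Msmp fell by 1.25 ± 0.25 and stood at 0.95 after nifedipine (adjusted p of the difference 0.0258). Lrtm2 fell by 2.09 ± 0.37 from low control signals of 30.7, 18.4 and 33.5 and 18.8, 21.9 and 28.2, and 2 of its 6 clonidine arrays were at the floor. The functions of these last genes in hepatocytes are not described here.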
